A study of Arabidopsis thaliana with 6 samples.

Results

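The plant cuticle is a layer of wax and cutin that epidermal cells lay down on the outside of shoot organs. From a table of 33557 genes, 10 named genes of cuticle synthesis and export were taken by their gene identifiers. They are the transporter genes ABCG11, ABCG12, ABCG13 and ABCG32, the wax genes CER1, CER3, CER4, CER6 and MAH1, and the cutin gene LACS2. All 10 were found. Their levels were read in whole Arabidopsis thaliana seedlings of the cbe1 mutant (3 libraries) and of the wild-type accession Col0 (3 libraries). Seedlings of both genotypes were harvested after 7 days of growth on medium with 1% sucrose, in days of 16 hours light and 8 hours night, and their poly(A) RNA was sequenced. CBE1 is a plant partner of eIF4E, the translation factor that binds the mRNA cap. Neither the kind of mutation nor the hour of harvest is stated in the labels. The 10 genes and the further lists were picked with earlier results of these data known, so shares set beside their counts give no test.

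Wax is made from very-long-chain fatty acids. These are activated to acyl-CoA by long-chain acyl-CoA synthetases, lengthened in the endoplasmic reticulum, and then turned into alkanes on one branch or primary alcohols on the other. Cutin is a polyester of shorter hydroxylated fatty acids. Both reach the cell surface through ABCG transporters of the plasma membrane, of which the short ones work as dimers and ABCG32 is of the full-length kind.

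Every level below is an FPKM value, that is, fragments scaled by transcript length and by the mapped fragments of a library, so levels can be compared between genes. The authors deposited 1 FPKM value per gene and genotype, with no value per library, and the depth of the libraries is unknown. No spread between replicates could be shown. The error given with each change is the standard error (SE) that the authors' Cuffdiff statistic implies, namely the log2 fold change of cbe1 over Col0 divided by that statistic, and intervals are 95% normal intervals from it. A gene was called when the authors had tested it and its q-value was below 0.05. The CBE1 transcript (AT4G01290) had 4.48 FPKM in cbe1 and 13.8 FPKM in Col0, a log2 fold change of −1.62 ± 0.20 (SE).

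A nucleotide-binding part of ABCG12, ABCG13 and ABCG32 is shown first, because ABCG13 and ABCG12 lie near each other on chromosome 1 and only ABCG13 was called, and the lines let their sequences be compared. The lines give the coding strand from the RefSeq models on assembly TAIR10.1, 5′ to 3′, with the 24 bases that encode the Walker A motif, the loop that holds the phosphates of ATP, in capitals. ABCG12 and ABCG13 had 1 match to this motif each and ABCG32 had 2, of which the first is shown and compared.
ABCG12: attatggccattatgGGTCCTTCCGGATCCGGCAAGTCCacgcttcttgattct
ABCG13: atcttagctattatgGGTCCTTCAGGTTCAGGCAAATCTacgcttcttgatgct
ABCG32: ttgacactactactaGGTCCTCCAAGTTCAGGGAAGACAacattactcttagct
Of the 54 bases shown, ABCG12 and ABCG13 had 44 in common, and ABCG32 and ABCG13 had 30. Over the aligned bases of the whole coding sequence ABCG12 and ABCG13 were 66.1% identical, and the longest run that their spliced transcripts shared was 20 bases. None of the compared gene pairs shared a run of 50 bases.

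Of the 10 genes, 9 were tested by the authors, and 2 rose in cbe1 seedlings: CER1, an enzyme of alkane formation, and ABCG13, a transporter known for cutin of petals. Among all 22303 tested genes 4.94% were called, 3.31% higher and 1.63% lower. By the Cuffdiff test 0 of the 10 fell. An unadjusted p below 0.05 was reached by 3 of the 9 tested genes, CER1, ABCG13 and CER4, each higher in cbe1. Of all tested genes 16.7% reached that mark in either direction. Besides CER1 and ABCG13, the other 7 tested genes were not called, and MAH1 went untested because of its low signal. The median log2 fold change was 0.026 for the 9 tested genes and 0.18 for all tested genes. In whole seedlings, a change in the number of epidermal cells and a change in RNA per cell cannot be told apart.

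**Figure D1:**
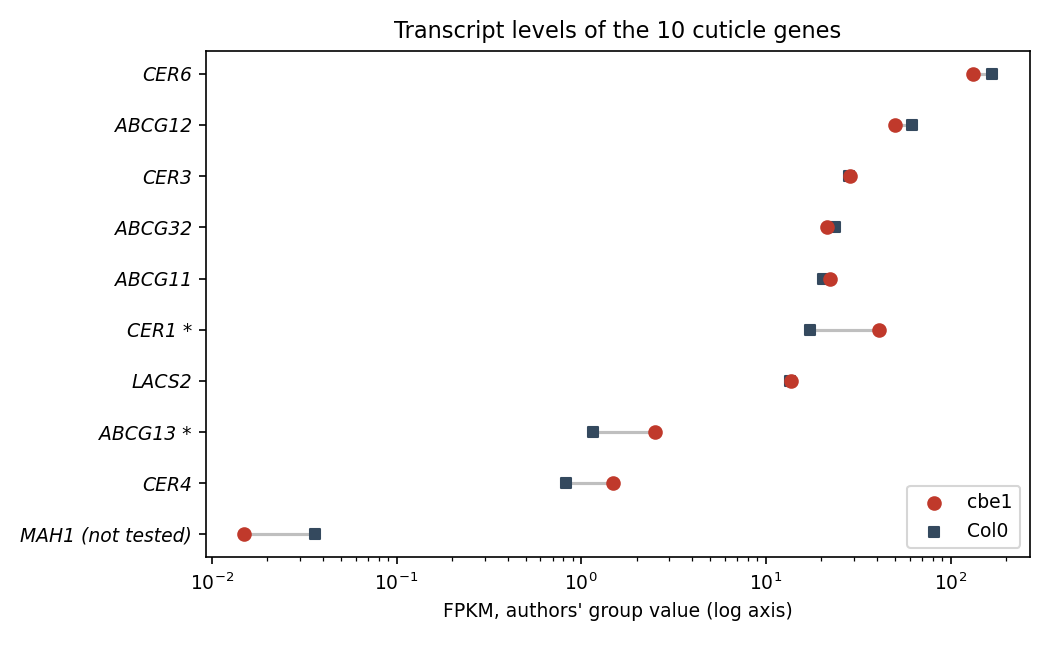
FPKM of the 10 genes in cbe1 (red circles) and Col0 (dark squares) on a log axis, 1 authors' group value per point and no error bar. CER1 (40.8 and 17.2 FPKM) and ABCG13 (2.52 and 1.16 FPKM), marked with an asterisk, were called, while the points of CER3, LACS2 and ABCG11 nearly coincide.

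CER6 (AT1G68530, also KCS6) is the condensing enzyme that sets the pace of very-long-chain fatty acid elongation for wax in the shoot. It lies on chromosome 1 from 25712588 to 25714807 on the minus strand. CER6 had 132.4 FPKM in cbe1 and 168.4 FPKM in Col0, the highest level of the 10 genes in both genotypes. That was a log2 fold change of −0.35 ± 0.19 (SE), with an interval from −0.71 to 0.019, and it was not called (q = 0.336, authors' deposited table).

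CER1 (AT1G02205, chromosome 1, 418748 to 422438, plus strand) and CER3 (AT5G57800, chromosome 5, 23420209 to 23424052, plus strand) encode partner proteins that together turn very-long-chain acyl-CoA into alkanes, the main wax of Arabidopsis shoots. CER1 had 40.8 FPKM in cbe1 and 17.2 FPKM in Col0. The transcript was 2.37-fold higher in cbe1, with an interval from 1.84-fold to 3.04-fold, a log2 fold change of 1.24 ± 0.18 (SE) and q = 8.10e-09 (authors' deposited table). CER3 had 28.7 FPKM in cbe1 and 28.2 FPKM in Col0, a log2 fold change of 0.026 ± 0.17 (SE). Its interval ran from 0.80-fold to 1.29-fold, and it was not called (q = 0.969, authors' deposited table).

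Within the alkane pair the order of levels differed between the genotypes. CER1 stood at 1.42 times the level of CER3 in cbe1 and at 0.612 times in Col0. Among the 10 genes CER1 was number 3 by level in cbe1 and number 6 in Col0. The difference between the changes of CER1 and CER3 was not tested. Beside CER1 on chromosome 1 lies AT1G02190, annotated by RefSeq as a member of the fatty acid hydroxylase superfamily. It had 0.444 FPKM in cbe1 and 0.180 FPKM in Col0 and was not called (log2 1.30 ± 0.70, q = 0.340, authors' deposited table). The coding sequences of CER1 and AT1G02190 were 65.6% identical over their aligned bases, and the longest run that their spliced transcripts shared was 32 bases. On the other side, AT1G02210 was left untested at 0.212 FPKM in cbe1 and 0.140 FPKM in Col0.

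CER4 (AT4G33790, chromosome 4, 16204157 to 16207947, minus strand) is the fatty acyl-CoA reductase that makes primary alcohols, the other branch of wax synthesis. It had 1.50 FPKM in cbe1 and 0.824 FPKM in Col0. Its log2 fold change of 0.86 ± 0.43 (SE) had an interval from 0.012 to 1.71. The gene was not called (q = 0.290, authors' deposited table). MAH1 (AT1G57750, also CYP96A15, chromosome 1, 21383981 to 21385709, minus strand) hydroxylates alkanes to secondary alcohols and ketones and is known from stems. Its transcript was close to absent at 0.0149 FPKM in cbe1 and 0.0364 FPKM in Col0, and no change can be read from it. Errors were wide at the low end of the scale: the median SE of all tested genes was 0.39 at 1 to 3 FPKM and 0.21 at 10 to 30 FPKM.

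LACS2 (AT1G49430, chromosome 1, 18291043 to 18295825, plus strand) activates fatty acids for cutin. It had 13.6 FPKM in cbe1 and 13.5 FPKM in Col0. The log2 fold change was 0.015 ± 0.19 (SE) with an interval from −0.35 to 0.38, and the gene was not called (q = 0.985, authors' deposited table).

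ABCG12 (AT1G51500, also CER5, chromosome 1, 19097797 to 19101080, minus strand) exports wax. It was the most abundant of the 4 transporters, with 50.2 FPKM in cbe1 and 62.1 FPKM in Col0. Its log2 fold change of −0.31 ± 0.17 (SE) had an interval from −0.65 to 0.034 and was not called (q = 0.373, authors' deposited table). ABCG11 (AT1G17840, chromosome 1, 6142564 to 6148940 as deposited, plus strand) exports both wax and cutin, alone as a homodimer or with ABCG12. It had 22.1 FPKM in cbe1 and 20.3 FPKM in Col0 (log2 0.12 ± 0.20, q = 0.842, authors' deposited table). The deposited locus of ABCG11 also holds AT1G17850 on the other strand, and RefSeq has the antisense RNA AT1G05337 at the same place, so without strand their reads cannot be told apart from those of ABCG11.

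ABCG32 (AT2G26910, chromosome 2, 11481623 to 11488186, plus strand) is the full-length transporter for cutin precursors. Its RefSeq model has 24 exons and encodes 1420 residues, against 703 for ABCG11, 687 for ABCG12 and 678 for ABCG13. ABCG32 had 21.5 FPKM in cbe1 and 23.8 FPKM in Col0 (log2 −0.15 ± 0.17, q = 0.751, authors' deposited table). Neither ABCG11 nor ABCG32 was called, and their intervals ran from −0.27 to 0.51 and from −0.49 to 0.19 on the log2 scale.

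ABCG13 (AT1G51460, chromosome 1, 19076982 to 19081433, minus strand) was the scarcest transporter, with 2.52 FPKM in cbe1 and 1.16 FPKM in Col0. It rose 2.17-fold, a log2 fold change of 1.12 ± 0.33 (SE) with an interval from 0.47 to 1.76 (q = 0.0207, authors' deposited table). Relative to the median gene with a mean of at least 1 FPKM, which itself stood at 0.17 on the log2 scale, ABCG13 stood at 0.94 on the log2 scale and was no longer called (q = 0.0812). ABCG13 supplied 2.61% of the summed FPKM of the 4 transporters in cbe1 and 1.08% in Col0. ABCG12 supplied 52.1% in cbe1 and 57.8% in Col0. The sum itself was 96.3 FPKM in cbe1 and 107.4 FPKM in Col0, so most transporter transcript in either genotype came from genes that were not called.

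Between ABCG13 and ABCG12 lie BGLU35, AT1G51480 and BGLU36. BGLU35 had 0.314 FPKM in cbe1 and 0.210 FPKM in Col0 and was not called (q = 0.753, authors' deposited table). The other 2 were left untested at levels below 0.15 FPKM in both genotypes. On the far side of ABCG13, AT1G51450 had 2.66 FPKM in cbe1 and 2.15 FPKM in Col0 and was not called (q = 0.681, authors' deposited table).

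**Figure D2:**
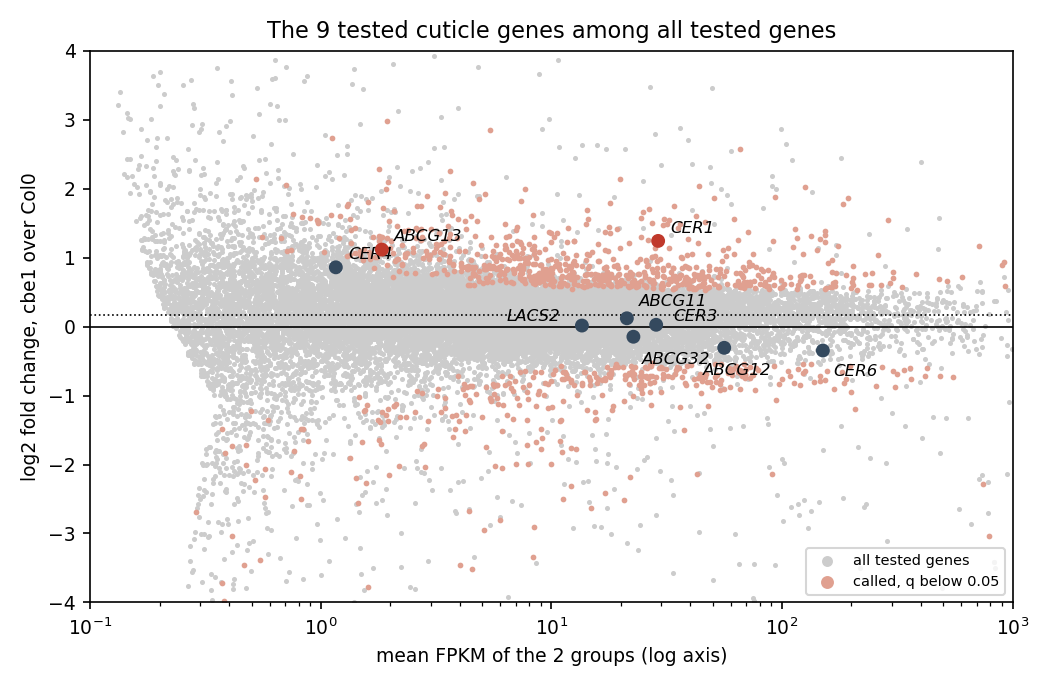
Log2 fold change of cbe1 over Col0 against mean FPKM (log axis) for tested genes, grey, with called genes in light red and the 9 tested cuticle genes as large points, red where called. The dotted line marks the median gene at 0.17, and 575 tested genes lie outside the axes or are listed at 0 in a genotype. CER1 sits at a mean of 29.0 FPKM above the band of genes not called, CER6 and ABCG12 sit low within that band.

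The median gene with a mean of at least 1 FPKM had a log2 fold change of 0.17, or 1.13-fold, so the middle of the distribution lay above 0 in the deposited values. Relative to it CER1 stood at 1.07 and was still called (q = 1.81e-06), where 1.33% of all tested genes were called higher and 2.99% lower. CER6 stood at −0.52 and ABCG12 at −0.48, and neither was called (q = 0.0915 and 0.0974). ABCG11, CER3 and LACS2 changed sign with this recentring, so no direction is given for them. The shares of all tested genes called higher were 1.59% at a q-value below 0.01, 1.08% where the log2 fold change had to reach 1, and 4.20% among genes with a mean of at least 1 FPKM. They were 1.66% relative to the nuclear protein-coding total and 15.0% relative to the nuclear total.

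**Figure D3:**
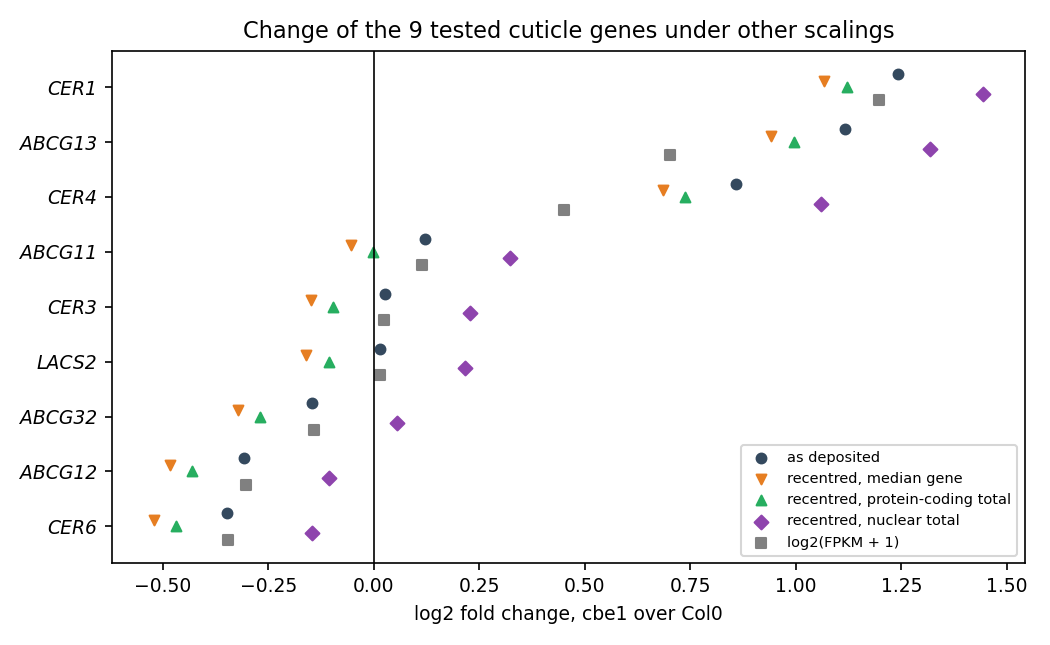
Log2 fold change of cbe1 over Col0 for the 9 tested genes as deposited, recentred in 3 ways and with a pseudocount of 1 FPKM. CER1, ABCG13 and CER4 stay above 0 under each, CER6 and ABCG12 stay below 0, and ABCG11, CER3, LACS2 and ABCG32 lie on either side.

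The sequence upstream of the genes was searched for the L1 box, the GCC box and the G-box only. Sites of other regulators, such as MYB factors, were not searched. The L1 box (TAAATGCA or TAAATGTA) is bound by ATML1 and PDF2, which specify epidermis. The GCC box (GCCGCC) is bound by factors of the AP2/ERF family, and the G-box (CACGTG) by bZIP and bHLH factors. Windows were the 250 bases before the RefSeq gene start on assembly TAIR10.1, both strands were searched, and no motif overlapped another. The 2 genes that rose and ABCG11 are shown, 5′ to 3′ on the strand of the gene, with L1 boxes in capitals. The windows are chr1:418166-418415 on the plus strand, chr1:19081452-19081701 on the minus strand and chr1:6142152-6142401 on the plus strand.
CER1: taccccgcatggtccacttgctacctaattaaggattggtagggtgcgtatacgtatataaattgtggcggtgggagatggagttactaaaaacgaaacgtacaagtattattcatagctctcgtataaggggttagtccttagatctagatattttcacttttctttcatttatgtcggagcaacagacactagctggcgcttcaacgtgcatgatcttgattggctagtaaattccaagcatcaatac
ABCG13: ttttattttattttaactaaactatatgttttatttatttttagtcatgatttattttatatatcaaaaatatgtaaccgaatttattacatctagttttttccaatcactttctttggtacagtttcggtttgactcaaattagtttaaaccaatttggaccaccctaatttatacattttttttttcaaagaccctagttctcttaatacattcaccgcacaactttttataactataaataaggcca
ABCG11: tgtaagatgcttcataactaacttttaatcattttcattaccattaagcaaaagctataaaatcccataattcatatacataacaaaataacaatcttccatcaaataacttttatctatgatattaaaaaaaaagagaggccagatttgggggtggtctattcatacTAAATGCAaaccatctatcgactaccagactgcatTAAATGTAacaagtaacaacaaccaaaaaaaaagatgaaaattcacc
Of the 10 genes, 1 held an L1 box: ABCG11, with a TAAATGCA from 82 to 75 and a TAAATGTA from 47 to 40 bases before its start. Among 27443 windows of nuclear protein-coding genes 4.49% held an L1 box, 1.87% a GCC box and 6.49% a G-box. The windows of all 10 genes held 0 GCC boxes and 0 G-boxes. These matches describe letters in a window and no binding.

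Around the 10 genes, 50 further genes of chain elongation, wax, cutin, export and regulation were examined, of which 46 were tested. Of these 4 rose, 0 fell, and 42 were not called by the Cuffdiff test, where 3.31% of all tested genes were called higher and 1.63% lower. With recentring on the median gene 2 were called higher, beside 1.33% of all tested genes. At an unadjusted p below 0.05 there were 8 with a higher and 2 with a lower level, 10 of the 46, beside 16.7% of all tested genes. The median log2 fold change of the 46 was −0.032, against 0.18 for all tested genes.

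Of 10 genes of chain elongation and acyl activation 2 rose, beside 3.31% of all tested genes, and the median log2 fold change of the 10 was −0.18. LACS1, also CER8, activates very-long-chain acids for wax and acts in cutin synthesis with LACS2. It had 23.4 FPKM in cbe1 and 10.8 FPKM in Col0 (log2 1.11 ± 0.21, q = 1.94e-05, authors' deposited table), and the call was kept with recentring on the median gene. LACS1 stood at 1.71 times the level of LACS2 in cbe1 and at 0.803 times in Col0. KCS5, also CER60, is a condensing enzyme related to CER6, with 81.2% identity over the aligned coding bases. The longest run that the spliced transcripts of KCS5 and CER6 shared was 23 bases. KCS5 had 21.7 FPKM in cbe1 and 14.2 FPKM in Col0 (log2 0.61 ± 0.19, q = 0.0297, authors' deposited table), a call lost with recentring (q = 0.228). CER6 stood at 6.11 times the level of KCS5 in cbe1 and at 11.9 times in Col0.

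Of 14 further cutin genes 2 rose and 0 fell, where 3.31% of all tested genes were called higher and 1.63% lower. At an unadjusted p below 0.05, which 16.7% of all tested genes reached, 4 were higher and 1 was lower. DCR, an acyltransferase needed for cutin, had 40.5 FPKM in cbe1 and 14.2 FPKM in Col0. The DCR transcript was 2.84-fold higher, a log2 fold change of 1.51 ± 0.19 (SE), with q = 4.13e-13 (authors' deposited table), and the call was kept with recentring. AT5G33370, annotated by RefSeq as a GDSL-like lipase/acylhydrolase, had 20.0 FPKM in cbe1 and 11.9 FPKM in Col0 (log2 0.75 ± 0.21, q = 0.0108, authors' deposited table). That call was lost with recentring (q = 0.0946), and AT5G33370 shares its deposited locus with AT5G33365.

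**Figure D4:**
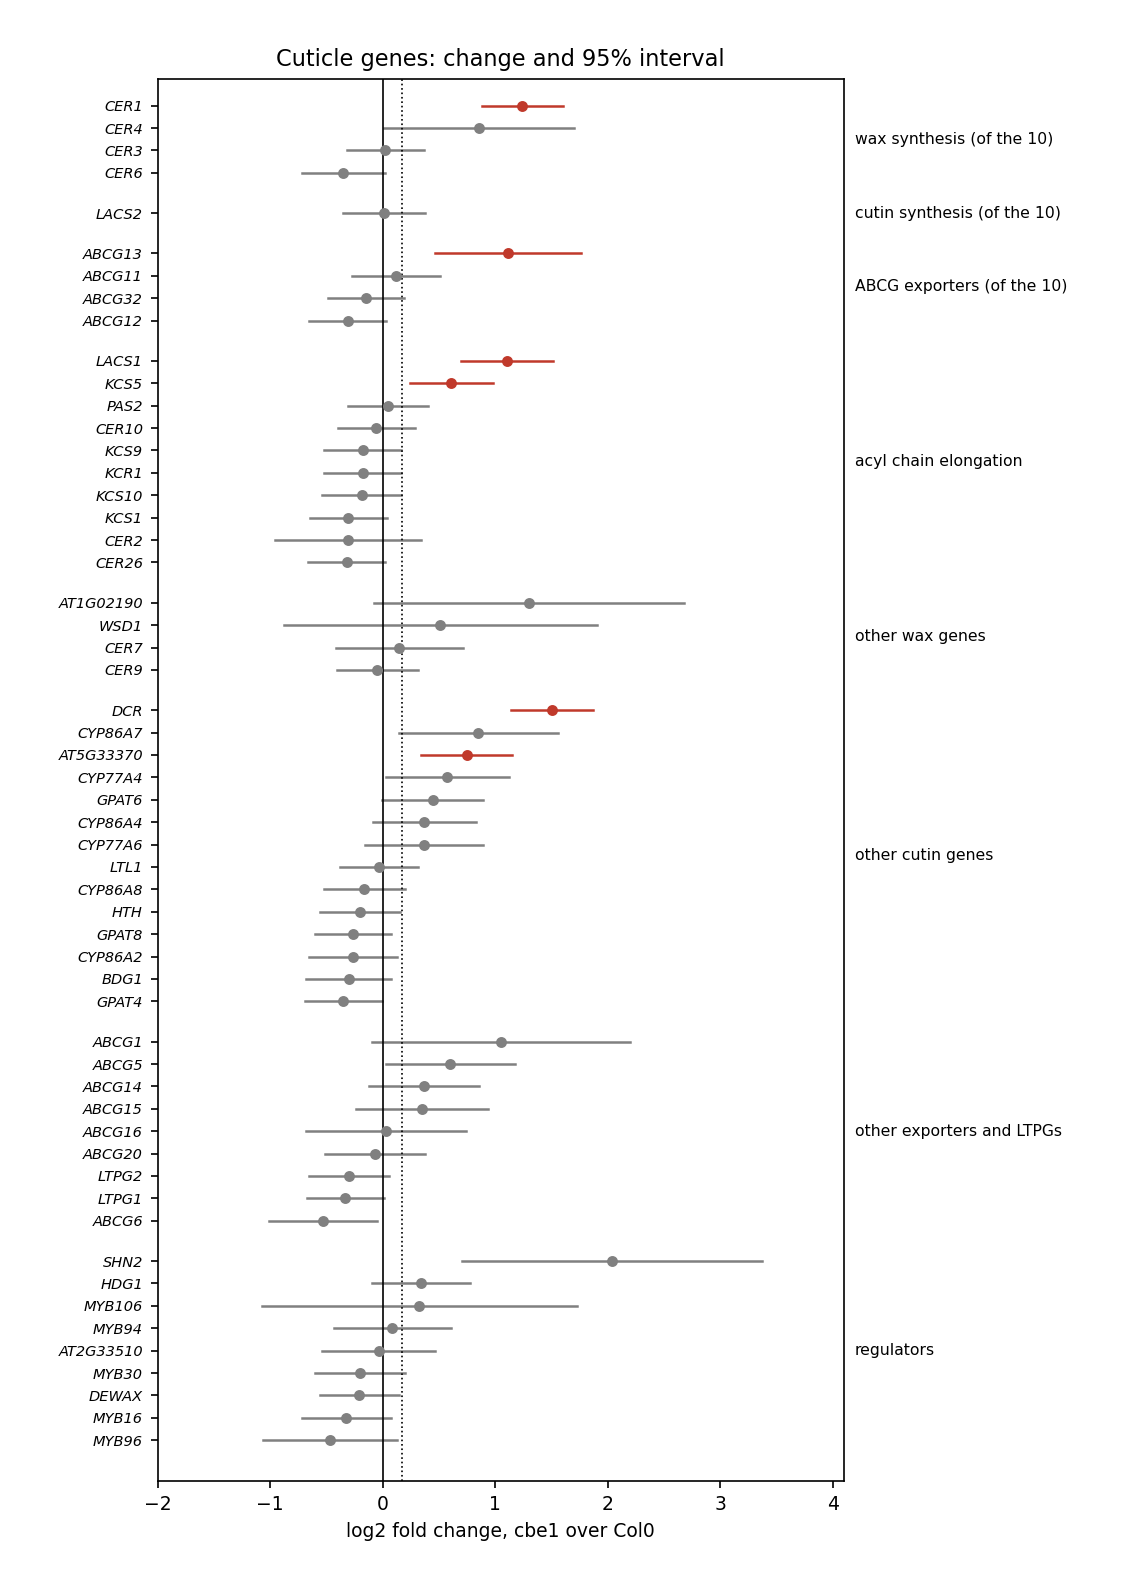
Log2 fold change of cbe1 over Col0 with 95% intervals from the Cuffdiff statistic for the tested cuticle genes, grouped by role, red where called and grey where not. The solid line is 0 and the dotted line the median gene at 0.17. The called genes are CER1, ABCG13, LACS1, KCS5, DCR and AT5G33370. Their whole intervals lie above the dotted line, as does that of SHN2, which was not called. Recentred on that line, ABCG13, KCS5 and AT5G33370 were no longer called.

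Of 4 other wax genes 0 were called by the Cuffdiff test and 0 had an unadjusted p below 0.05. For this list and the next, the shares among all tested genes were 4.94% called and 16.7% at that unadjusted p. CER9, an E3 ubiquitin ligase, had 21.9 FPKM in cbe1 and 22.6 FPKM in Col0, and CER7, an exosome subunit, had 6.50 FPKM in cbe1 and 5.87 FPKM in Col0. Of 11 other export genes 9 were tested and 0 called, of which ABCG5 (higher) and ABCG6 (lower) had an unadjusted p below 0.05. Most abundant in this list were the lipid transfer proteins LTPG1, with 237.0 FPKM in cbe1 and 297.7 FPKM in Col0, and LTPG2, with 116.5 FPKM in cbe1 and 143.5 FPKM in Col0.

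Of 11 regulators 9 were tested and 0 called, with 1 at an unadjusted p below 0.05. Among all tested genes 4.94% were called and 16.7% had an unadjusted p below 0.05. DEWAX, a repressor of wax genes, had 83.0 FPKM in cbe1 and 95.8 FPKM in Col0. MYB16, an activator of cuticle genes, had 15.2 FPKM in cbe1 and 19.0 FPKM in Col0. SHN2, an AP2/ERF activator of cutin genes chosen for mention after its value was seen, had 3.56 FPKM in cbe1 and 0.863 FPKM in Col0. Its log2 fold change of 2.04 ± 0.68 (SE) just missed the threshold (q = 0.0521, authors' deposited table), and it passed when genes with a mean under 1 FPKM were left out (q = 0.0453). With recentring, SHN2 was not called relative to the median gene (q = 0.101) or the nuclear protein-coding total (q = 0.0891). It was called relative to the nuclear total (q = 0.0123).

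Suberin, the related polyester of root endodermis and seed coat, gave 0 calls among 10 tested genes, with 1 lower at an unadjusted p below 0.05. Beside these counts, 4.94% of all tested genes were called and 16.7% reached that unadjusted p. KCS20 had 42.9 FPKM in cbe1 and 47.2 FPKM in Col0, and the fatty acid hydroxylase CYP86A1 had 15.2 FPKM in cbe1 and 13.4 FPKM in Col0.

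Of 4 markers of the epidermis, the tissue that makes the cuticle, all were present, 1 rose and 0 fell. As deposited, 3.31% of all tested genes were called higher and 1.63% lower. PDF1, a protein of the outer cell layer, had 236.3 FPKM in cbe1 and 140.8 FPKM in Col0 and rose (log2 0.75 ± 0.18, q = 0.00226, authors' deposited table). ATML1 had 25.1 FPKM in cbe1 and 34.8 FPKM in Col0 and PDF2 had 27.5 FPKM in cbe1 and 37.3 FPKM in Col0, neither called as deposited (q = 0.114 and 0.132, authors' deposited table). With recentring on the median gene both were called lower (q = 0.0124 and 0.0137), where 2.99% of all tested genes were called lower. The receptor kinase ACR4 had 3.26 FPKM in cbe1 and 4.15 FPKM in Col0 and was not called. PDF1 alone made the sum of the 4 higher in cbe1, at 292.2 FPKM in cbe1 and 217.1 FPKM in Col0. ATML1, PDF2 and ACR4 each had a lower value in cbe1, and the median log2 fold change of the 4 was −0.39.

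Of 4 stomatal lineage markers SPCH rose, with 1.99 FPKM in cbe1 and 0.591 FPKM in Col0, a call lost with recentring (q = 0.0880). For this and the other marker lists here, 3.31% of all tested genes were called higher and 1.63% lower as deposited. FAMA had 5.38 FPKM in cbe1 and 3.36 FPKM in Col0, TMM 6.41 FPKM in cbe1 and 5.07 FPKM in Col0, and MUTE 0.473 FPKM in cbe1 and 0.204 FPKM in Col0, none of them called. All 4 stomatal lineage markers had a higher value in cbe1, with a median log2 fold change of 0.94, against 0.18 for all tested genes. SPCH and FAMA had an unadjusted Cuffdiff p below 0.05, as did 16.7% of all tested genes. The 4 mesophyll markers LHCA1, LHCB5, LHCB6 and RBCS3B were not called and summed to 20365 FPKM in cbe1 and 18732 FPKM in Col0. The 4 root markers PYK10, CASP1, SCR and SHR were not called and summed to 1625 FPKM in cbe1 and 2469 FPKM in Col0, a sum that PYK10 dominates with 1583 FPKM in cbe1 and 2440 FPKM in Col0. The values of the other 3 ran the other way. CASP1 had 29.8 FPKM in cbe1 and 19.4 FPKM in Col0 (q = 0.116, authors' deposited table), SHR had 3.89 FPKM in cbe1 and 2.58 FPKM in Col0 (q = 0.229, authors' deposited table), and SCR had 7.37 FPKM in cbe1 and 6.99 FPKM in Col0. CASP1 and SHR were below 0.05 at the unadjusted p, and the median log2 fold change of the 4 root markers was 0.34. The part of tissue make-up in the changes of CER1 and ABCG13 was not tested.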

How the data were processed

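Poly(A) RNA of cbe1 and Col0 seedlings was measured in 3 libraries each, which the labels call biological replicates. Reads were aligned with TopHat and genotypes compared with Cuffdiff on genome build TAIR10, per the submitters' processing notes. The sources used here do not give versions, annotation, strand use or scaling between libraries. The deposited table, per the file headers, holds 1 FPKM value per gene and genotype, a test statistic (a score whose sign runs as Col0 over cbe1), a log2 fold change, a p-value and a q-value. The authors left 11198 genes untested for low signal.

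Log2 fold changes of cbe1 over Col0 were recomputed from the deposited FPKM with no pseudocount and differed from the deposited ones by at most 1.24e-05 among tested genes. A Benjamini-Hochberg adjustment over the 22303 tested genes came within 2.46e-06 of the deposited q-value. For recentring, a shift was taken from each log2 fold change, the statistic and p-value recomputed with the SE kept, and all tested genes adjusted again. The recentring alone was tried on simulated data with normal noise of that same SE, which cannot show whether the SE is right. Deposited locus starts count from 0 and were raised by 1. Gene models and sequences come from RefSeq on assembly TAIR10.1, where 32809 of 32810 shared nuclear identifiers overlap their deposited TAIR10 interval. No protein sequence table was used here.

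The 10 genes and all lists were chosen with earlier results of these data known. Named besides the 10 were CBE1, every marker, and per list up to 4 calls by size, filled to 2 with the most abundant. That AT4G01290 is CBE1 is known from the study. SHN2, ABCG5, ABCG6 and neighbouring genes were chosen for mention after their values were seen. Python 3.11.15 with numpy 2.4.6, pandas 2.3.3, scipy 1.17.1, biopython 1.88 and matplotlib 3.10.9 was used.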

Additional observations from a re-analysis of the deposited data

How the results depend on the processing

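The rise of CER1 was called under every alternative tried: q below 0.01, a minimum log2 change of 1, a mean of 1 FPKM or more and each recentring. Of the 10 genes 2 were called higher as deposited and 1, CER1, with the threshold of 0.01 and when recentred on the median gene or, as chosen after seeing the data, on the total of nuclear protein-coding genes with at least 300 exon bases (shift 0.12, a log2 value). ABCG13 was the call lost in each case. Recentring on the total of all nuclear genes but AT2G01021 shifts values the other way (−0.20), where the short gene AT3G08520 alone has 33023 FPKM in cbe1 and 83258 FPKM in Col0, and 15.0% of all tested genes were then called higher. Of the 50 further cuticle genes 46 were tested. As deposited 4 were called higher, beside 3.31% of all tested genes. With the threshold of 0.01 there were 2, beside 1.59%, and with the minimum log2 change of 1 there were 2, beside 1.08%. Among genes with a mean of at least 1 FPKM there were 5, beside 4.20%. Recentred on the median gene there were 2, beside 1.33%, on the protein-coding total 2, beside 1.66%, and on the nuclear total 9, beside 15.0%. The same shares stand beside the counts of the 10 genes. Sign changes concerned genes that were not called. On the median gene and the protein-coding total ABCG11 came to −0.054 and −0.0014, CER3 to −0.15 and −0.096, and LACS2 to −0.16 and −0.11, and on the nuclear total ABCG32 came to 0.054. With a pseudocount of 1 FPKM the log2 fold change of ABCG13 was 0.70 and that of CER4 0.45. No paired analysis was possible because the table holds 1 value per gene and genotype, and for the same reason no library could be left out. The unknown depth and the SE of low genes limit what can be read from CER4 and MAH1.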

Other observations

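Whole gene families that include cuticle genes were also counted by symbol, a grouping chosen after the data were seen, with no test. Of 32 tested ABCG genes 6 rose in cbe1 and 0 fell by the Cuffdiff test, where 3.31% of all tested genes were called higher and 1.63% lower. With recentring on the median gene 1 of them, ABCG34, was called higher, beside 1.33% of all tested genes. Besides ABCG13 these were ABCG34, with 11.8 FPKM in cbe1 and 6.62 FPKM in Col0 (log2 0.83), ABCG37, with 5.95 FPKM in cbe1 and 3.76 FPKM in Col0, and ABCG3, with 5.99 FPKM in cbe1 and 3.29 FPKM in Col0. ABCG30 had 1.80 FPKM in cbe1 and 0.876 FPKM in Col0, and ABCG8 had 1.25 FPKM in cbe1 and 0.416 FPKM in Col0. The family median was 0.46 on the log2 scale, against 0.18 for all tested genes. Of the called ABCG genes, only ABCG13 was among the 10 genes or the 50 further cuticle genes.

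Of 8 tested LACS genes, the acyl-CoA synthetases, LACS1 and LACS6 rose, and 1 of them, LACS1, was called with recentring on the median gene. LACS6, a peroxisomal enzyme of fatty acid breakdown, had 16.6 FPKM in cbe1 and 11.1 FPKM in Col0 (q = 0.0425 in the authors' deposited table). Of 17 tested KCS condensing enzymes KCS5 alone was called and 0 were with recentring, and the family median was −0.14. Beside these counts, 4.94% of all tested genes were called as deposited. Of 8 tested GPAT acyltransferases and 8 tested CYP86 hydroxylases 0 were called by the Cuffdiff test.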
